A study of Mus musculus with 9 samples.

Results

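The genes Gfap, Vim, Nes, Synm, Plec and Cd44, 6 of the 34745 in the deposited expression table, were chosen by name. The choice was made with earlier results of these data known. Gfap (glial fibrillary acidic protein), Vim (vimentin), Nes (nestin) and Synm (synemin) encode intermediate filament proteins of astroglia. Plec encodes plectin, which ties filaments to adhesion sites and other cytoskeletal fibres. Cd44 encodes a surface receptor for hyaluronan that is widely used as a marker of reactive astrocytes. All 6 had counts in every library and passed the filter on low counts, which left 16494 genes in all.

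RNA was sequenced from the spinal cord of mice with a complete transection at the level of T9. The day 0, day 3 and day 21 groups, named for the days after injury, had 3 libraries each. The labels give no strain, genotype, age, sex, sham operation or length of cord taken, and all groups share only the tissue and the library protocol. The day 0 libraries carry the letter N in their titles, which the labels do not explain, so whether these cords had been cut is not known here. They were taken as day 0 because the series design names 0, 3 and 21 days. Whether each library is 1 animal is not stated in the labels, and the p-values cover only the spread among these libraries, part of which may be technical.

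Intermediate filaments are rope-like polymers that give cells tensile strength. GFAP and vimentin can each form filaments or join in mixed ones, whereas nestin and synemin need a partner such as vimentin to be built in. After cord injury, astrocytes enlarge and add filament protein, and those next to the lesion form a glial scar border. Mature astrocytes hold GFAP as their main filament protein, while nestin is best known from neural progenitors and reappears in reactive astrocytes. Vimentin is also made by microglia, macrophages, endothelial cells, fibroblasts and Schwann cells, and CD44 by leukocytes. Whole cord RNA therefore cannot assign the transcripts of these 2 genes to astrocytes. It does not separate cell types, so the same limit holds for Gfap, Nes, Synm and Plec.

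The loci are given on mouse build GRCm38, as in the table. Gfap (ENSMUSG00000020932) lies at chr11:102887336-102900912 on the minus strand, Vim (ENSMUSG00000026728) at chr2:13573927-13582826 on the plus strand and Nes (ENSMUSG00000004891) at chr3:87971078-87980451 on the plus strand. Synm (ENSMUSG00000030554) lies at chr7:67730161-67759742, Plec (ENSMUSG00000022565) at chr15:76170974-76232574 and Cd44 (ENSMUSG00000005087) at chr2:102811141-102901665, all on the minus strand. In GENCODE M21, exons of other genes overlapped 6.43% of the exon bases of Synm and 1.13% of those of Plec, so a small part of the reads of these 2 genes is uncertain.

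The sequence just upstream of the start of transcription is shown for the 4 genes that were higher at both days after injury, because it holds the proximal part of their promoters. RefSeq promoter windows on build GRCm38.p6 were found for 5 of the 6 genes, and Plec had none. Each line runs 5′ to 3′ on the gene's own strand and ends at the base before the RefSeq start. The window of Vim lies wholly in an untranslated first exon of a longer M21 transcript, so only 30 bases around its TATA box are shown. That of Gfap lies inside the M21 locus of the gene, whose 5′ end is at 102900912, though not in an exon. Capitals mark matches to the motifs searched, which are spelled out after the sequences.
Gfap, chr11:102897201-102897450, minus strand: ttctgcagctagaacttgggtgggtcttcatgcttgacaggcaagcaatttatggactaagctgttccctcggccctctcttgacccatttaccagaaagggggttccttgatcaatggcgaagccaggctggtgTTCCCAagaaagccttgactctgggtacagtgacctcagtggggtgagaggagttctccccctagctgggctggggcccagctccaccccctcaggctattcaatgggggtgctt
Nes, chr3:87970843-87971092, plus strand: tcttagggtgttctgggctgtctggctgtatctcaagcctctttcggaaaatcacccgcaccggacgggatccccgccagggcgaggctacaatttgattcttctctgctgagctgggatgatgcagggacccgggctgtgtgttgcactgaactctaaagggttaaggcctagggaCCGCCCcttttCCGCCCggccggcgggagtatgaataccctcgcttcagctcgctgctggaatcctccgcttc
Cd44, chr2:102901666-102901915, minus strand: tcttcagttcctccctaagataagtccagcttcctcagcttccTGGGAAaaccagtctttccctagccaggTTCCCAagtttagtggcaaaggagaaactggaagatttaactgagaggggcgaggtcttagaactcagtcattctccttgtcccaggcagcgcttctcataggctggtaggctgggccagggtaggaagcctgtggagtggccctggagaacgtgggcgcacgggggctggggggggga
Vim, chr2:13574267-13574296, plus strand: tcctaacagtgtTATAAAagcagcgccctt

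The motifs were searched on both strands in the 250 bases upstream of each start. The STAT letters TTCNNNGAA, found in 7.02% of 32851 such windows, and the AP-1 letters TGANTCA, found in 6.75%, were in none of the 5 windows. The RBPJ letters TGGGAA, present in 21.6% of windows, were found once upstream of Gfap and at 2 positions upstream of Cd44. The GC box GGGCGG, in 32.7% of windows, was found at 2 positions upstream of Nes. The CCAAT box, in 33.8% of windows, was found at 2 positions upstream of Vim and once upstream of Synm, and the TATA box TATAAA, in 12.4%, lay 32 bases before the start of Vim. The matches do not overlap one another. No letter pattern was common to the 4 genes. No exon of M21 lay under the windows of Gfap and Cd44, and the last 15 bases of the Nes window lay in a Nes exon. All 250 bases of the Synm window lay in exons of other genes.

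Gfap, Vim, Nes, Cd44 and Plec were higher at day 3 than at day 0, and 4 of them were still higher at day 21, Plec being the exception. All 6 genes were lower at day 21 than at day 3. Levels are FPKM, the fragment count scaled by gene length and by library total, and a gene was called changed at an adjusted p under 0.05 in edgeR's quasi-likelihood test across all genes. At day 3, 5 of 6 genes were called higher, where 24.8% of all tested genes were higher and 19.5% lower. At day 21, 4 of 6 were called higher than at day 0, where 17.9% of all tested genes were higher and 11.3% lower. Between day 21 and day 3, 6 of 6 were called lower, where 16.1% of all tested genes were lower and 11.7% higher. The Gfap and Synm calls among these were lost in 14 and 4 of 22 alternative fits. The median log2 fold change over all tested genes was 0.00807, 0.0184 and 0.0161 in these 3 comparisons. Because the 6 genes were chosen with earlier results known, their counts beside these shares are a description and not a test.

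**Figure D1:**
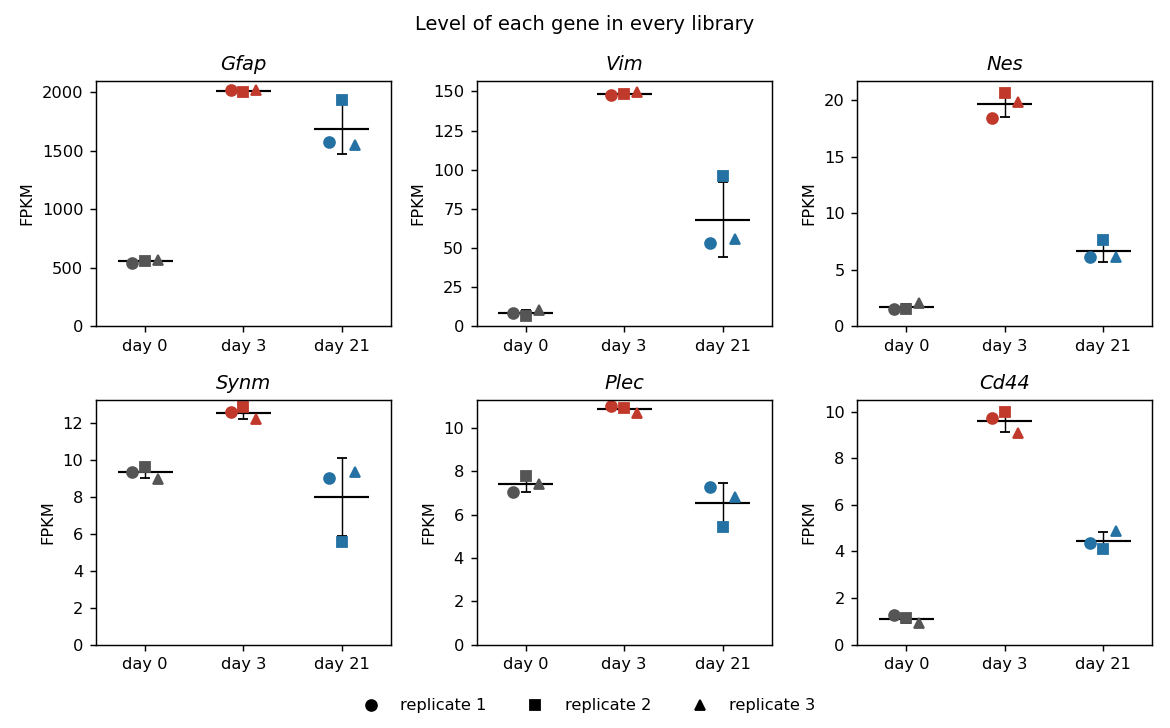
FPKM (vertical axis, starting at 0) of each of the 6 genes in the 9 libraries, with 1 point per library, a horizontal line at the group mean and an error bar of 1 SD (n = 3 per group). For Gfap, Vim, Nes and Cd44 the days do not overlap, and for Synm and Plec the square of day 21 replicate 2 (5.54 and 5.44 FPKM) lies below all other libraries.

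Library totals ran from 15763769 to 24022923 counts at day 0, from 14916863 to 17930431 at day 3 and from 14299679 to 15756253 at day 21. Day 21 replicate 2 stood apart: its log2 scaled counts (CPM) correlated at 0.935 and 0.943 with the other day 21 libraries, which correlated at 0.987 with each other. It also differed by gene length. Against the other day 21 libraries its median log2 difference was 0.413 among the shortest of 12001 genes in 3 equal classes of length and -0.431 among the longest, whereas between the day 3 libraries no such median passed 0.00933 in size. In that library Vim was 1.76 times the mean of the other day 21 libraries, Nes 1.26 times and Gfap 1.24 times, and Cd44, Plec and Synm were at 0.887, 0.773 and 0.603 of it. Over well counted genes, pairs of day 3 libraries differed by 2.0 to 2.27 times the median expected from counting error, and day 0 replicates 2 and 3 by 1.98 times. Day 0 replicate 1 differed from replicates 2 and 3 by 11.9 and 11.5 times. Its median log2 difference from them was 0.143 among the shortest genes and 0.0101 among the longest. Day 21 replicates 1 and 3 differed by 4.16 times, and day 21 replicate 2 differed from them by 70.4 and 81.1 times. At day 3 the coefficient of variation between libraries was 0.546% for Vim, where counting error alone gives 0.728%, and 0.412 to 5.61% for the other 5 genes, each above its counting error.

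Gfap was by far the most abundant of the 6 at every time. It stood at 539, 557 and 562 FPKM in the day 0 libraries, at 2015, 2003 and 2019 at day 3, and at 1577, 1934 and 1548 at day 21. The 3 groups did not overlap, and the day 3 libraries lay within a narrow band above all others. By rank among all genes in a library, Gfap moved from places 42 to 44 at day 0 to places 15 and 16 at day 3 and 14 to 18 at day 21. Its share of all gene counts was 0.255 to 0.266% at day 0, 0.949 to 0.956% at day 3 and 0.733 to 0.916% at day 21.

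Gfap was 3.51-fold higher at day 3 than at day 0 (log2 fold change 1.81 ± 0.10 SE, edgeR adjusted p 1.05e-06). At day 21 it was 2.79-fold higher (1.48 ± 0.10, edgeR adjusted p 9.04e-06). On the log2 scale, 81.8% of the day 3 difference was thus present at day 21. The fall from day 3 to day 21 was small, at -0.33 ± 0.10 (edgeR adjusted p 0.0303), and it was no longer called in 14 of 22 alternative fits. Leaving out any single library other than day 0 replicate 3 or day 21 replicate 2 ended this call, with adjusted p up to 0.0961. Without day 21 replicate 2 the fall was -0.42 (adjusted p 0.000316).

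Vim had the largest fold changes from day 0 of the 6. Its values were 8.16, 6.21 and 10.3 FPKM at day 0, 148.0, 148.2 and 149.5 at day 3, and 52.9, 95.6 and 55.6 at day 21. The day 3 libraries were all far above day 21, and the day 21 libraries were all above day 0, with replicate 2 the highest of its group. Vim was 17.4-fold higher at day 3 than at day 0 (log2 fold change 4.12 ± 0.27, edgeR adjusted p 3.22e-06) and 7.55-fold higher at day 21 (2.92 ± 0.25, edgeR adjusted p 5.51e-05). It fell by 1.21 ± 0.24 on the log2 scale from day 3 to day 21 (edgeR adjusted p 0.00605). Without day 21 replicate 2 the day 21 difference from day 0 was 2.61 and the fall from day 3 was -1.51, both still called. Its rank among all genes moved from places 3780 to 5576 at day 0 to places 180 to 184 at day 3 and 443 to 640 at day 21.

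Nes was close to the bottom of the 6 at day 0 and the third most abundant at day 3. It was at 1.53, 1.47 and 2.01 FPKM at day 0, at 18.4, 20.6 and 19.8 at day 3, and at 6.07, 7.66 and 6.11 at day 21. The groups did not overlap. Nes was 11.3-fold higher at day 3 (log2 fold change 3.50 ± 0.16, edgeR adjusted p 5.14e-07) and 3.62-fold higher at day 21 (1.86 ± 0.15, edgeR adjusted p 4.15e-05). Of the 4 genes called higher at both days it came down furthest, by 1.64 ± 0.15 on the log2 scale from day 3 to day 21 (edgeR adjusted p 0.000104). On that scale 53.1% of its day 3 difference was present at day 21.

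Synm, whose product links mixed filaments to adhesion and dystrophin complexes, had the smallest difference of the 6 at day 3. It was at 9.37, 9.63 and 8.99 FPKM at day 0, at 12.6, 12.9 and 12.2 at day 3, and at 9.02, 5.54 and 9.38 at day 21. Every day 3 library was above every day 0 library, but the difference did not pass the test (log2 fold change 0.38 ± 0.19, edgeR adjusted p 0.134). It did pass without day 21 replicate 2 (0.379, adjusted p 0.00018) and with the gene length trend removed (0.467, adjusted p 0.0022). At day 21 replicates 1 and 3 lay among the day 0 values and replicate 2 below them, and the difference from day 0 was -0.35 ± 0.19 (edgeR adjusted p 0.205). That difference was -0.129 without replicate 2, and it passed with the length trend removed (-0.315, adjusted p 0.0248). From day 3 to day 21 Synm fell by 0.72 ± 0.19 on the log2 scale (edgeR adjusted p 0.0204). This call was lost without any one of the day 3 libraries (adjusted p 0.0561 to 0.0654), and the value was -0.508 without day 21 replicate 2.

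Plec, the filament linker, was at 7.06, 7.79 and 7.40 FPKM at day 0, at 11.0, 10.9 and 10.7 at day 3, and at 7.27, 5.44 and 6.81 at day 21. The day 3 libraries were above all others, and the day 21 libraries reached from below the day 0 range into it. Plec was 1.41-fold higher at day 3 than at day 0 (log2 fold change 0.50 ± 0.13, edgeR adjusted p 0.0119). It fell by 0.81 ± 0.13 from day 3 to day 21 (edgeR adjusted p 0.00211). The day 21 difference from day 0 was -0.31 ± 0.13 and did not pass (edgeR adjusted p 0.103), and it was -0.183 without day 21 replicate 2 and -0.172 with the length trend removed. With that trend removed, the day 3 difference was 0.794.

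Cd44, the hyaluronan receptor, was the least abundant of the 6 at every time. It was at 1.26, 1.13 and 0.930 FPKM at day 0, at 9.71, 9.99 and 9.08 at day 3, and at 4.37, 4.10 and 4.88 at day 21. The groups did not overlap, and day 21 replicate 2 was within reach of the other libraries of its day. Cd44 was 8.36-fold higher at day 3 (log2 fold change 3.06 ± 0.14, edgeR adjusted p 4.01e-07) and 3.69-fold higher at day 21 (1.88 ± 0.13, edgeR adjusted p 1.46e-05). It fell by 1.18 ± 0.13 on the log2 scale between these days (edgeR adjusted p 0.00026), so that 61.5% of its day 3 difference was present at day 21.

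**Figure D2:**
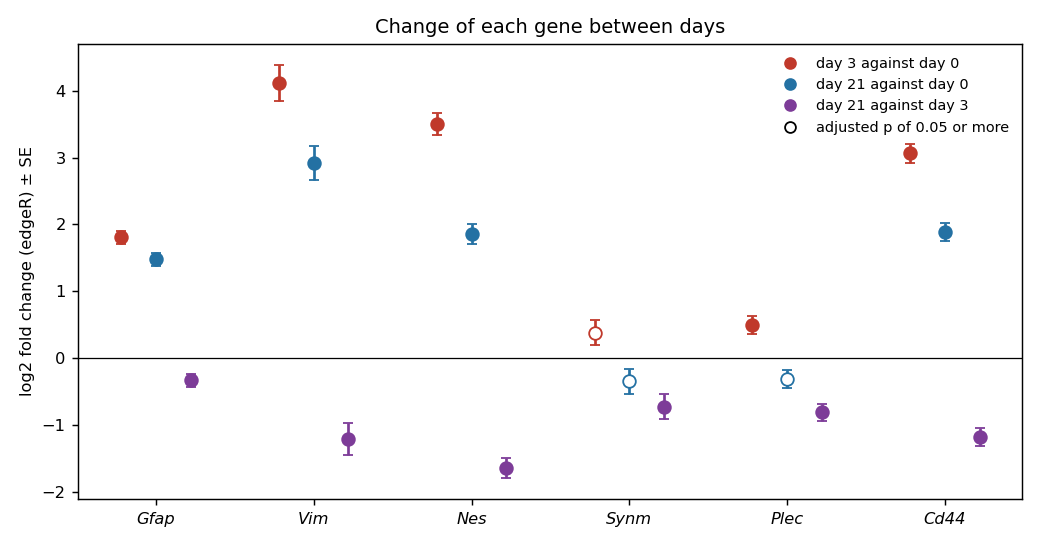
log2 fold change of the 6 genes (vertical axis) in the 3 comparisons, from edgeR with all 9 libraries, with error bars of 1 SE; filled points passed at an adjusted p under 0.05 and open points did not. Vim, Nes and Cd44 lie at 3.06 to 4.12 for day 3 against day 0, Gfap at 1.81, and Plec and Synm at 0.50 and 0.38.

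The order of the 6 by FPKM differed between days. At day 0, Gfap led and Synm was above Plec in each library, while Vim overlapped both, and Nes and Cd44 were below them. In each day 3 library the order was Gfap, Vim, Nes, Synm, Plec, Cd44. At day 21 it was Gfap, Vim, Synm, Plec, Nes, Cd44 in replicates 1 and 3, while in replicate 2 Nes stood above Synm and Plec. The gene lengths behind the FPKM were longer than the M21 exon union for all 6, with 13196 against 6416 bases for Nes and 4737 against 4218 for Gfap. Per M21 exon base, Plec and Synm changed places in the day 3 libraries and in day 21 replicate 2, and Vim and Plec in day 0 replicate 1, and the rest of the order was as by FPKM.

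The make-up of the filament transcripts differed as well. Of the FPKM summed over Gfap, Vim, Nes and Synm, Gfap made up 96.4 to 97.0% at day 0, 91.7 to 91.8% at day 3 and 94.7 to 95.9% at day 21. Vim made up 1.08 to 1.76%, 6.75 to 6.79% and 3.22 to 4.68%. Synm made up a smaller share after injury, 1.54 to 1.68% at day 0, 0.555 to 0.590% at day 3 and 0.271 to 0.579% at day 21.

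Ratios within a library are free of library size and show the same shift. The log2 ratio of Gfap to Vim was 6.10 ± 0.36 (SD, n = 3) at day 0, 3.76 ± 0.0063 at day 3 and 4.68 ± 0.30 at day 21, and the days did not overlap. The log2 ratio of Nes to Vim was -2.29 ± 0.18, -2.92 ± 0.080 and -3.32 ± 0.28 at day 0, day 3 and day 21, again without overlap. The log2 ratio of Synm to Vim was 0.21 ± 0.41 at day 0 and -3.56 ± 0.046 at day 3, and at day 21 it was -3.08 ± 0.89, overlapping day 3. Cd44 relative to Gfap was higher at day 3 than at day 0 by 1.26, and day 21 overlapped day 0. With 3 libraries against 3 the smallest exact two-sided permutation p is 0.1, so none of the 12 comparisons of ratios could pass 0.05. The 10 without overlap reached that value (0.12 after Benjamini-Hochberg adjustment over the 12), and the other 2 had exact permutation p-values of 0.2 and 0.4.

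**Figure D3:**
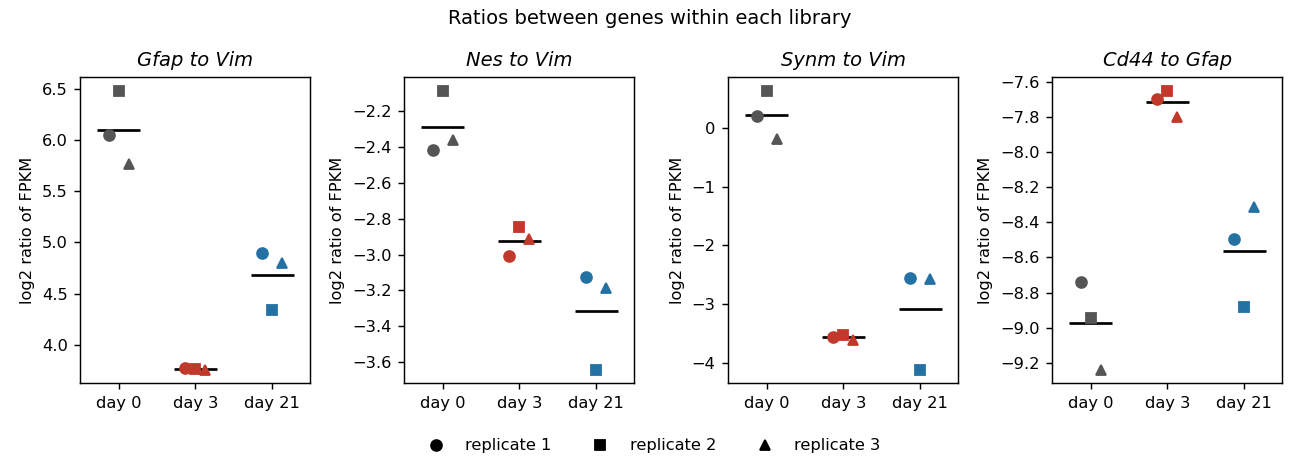
log2 ratio of FPKM between pairs of the 6 genes in each library (vertical axes, which do not start at 0), with 1 point per library and a line at the group mean. The Gfap to Vim ratio is lowest at day 3, at 3.76, with day 21 between day 3 and day 0, and the Synm to Vim ratio of day 21 replicate 2 lies below every day 3 library.

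Genes of the filament machinery around the 6 were taken from lists of their partners. Of 14 tested genes of other filament proteins, 4 rose and 4 fell at day 3 (median log2 fold change 0.12). The 4 that fell were the neuronal filament subunits Nefl, Nefm, Nefh and Ina, the last 3 named after their values were seen. Nefl fell from 1028 ± 11 (SD) to 391 ± 0.27 FPKM at day 3 and stood at 643 ± 17 at day 21 (log2 differences from day 0 of -1.45 and -0.80, edgeR adjusted p 9.8e-07 and 8.9e-05). Summed over the list, other filament proteins were at 2317 to 2448 FPKM at day 0, 1044 to 1052 at day 3 and 1435 to 1676 at day 21. The muscle filament gene Des, also made by pericytes, was at 0.745, 2.98 and 3.96 FPKM and rose by 1.94 at day 3 and 2.28 at day 21 on the log2 scale (edgeR adjusted p 2.7e-05 and 2.9e-05). The nuclear lamin genes Lmna and Lmnb1 rose at day 3 by 1.68 and 1.82 on the log2 scale (edgeR adjusted p 0.00011 and 1.1e-05) and were lower again at day 21 by 1.22 and 1.49 (edgeR adjusted p 0.0019 and 0.00013). The keratin gene Krt19 rose at day 3 by 2.26 (edgeR adjusted p 0.0023), from 0.243 to 1.21 FPKM.

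Small heat shock proteins and co-chaperones that bind filaments moved with Gfap at day 3. Of 7 chaperone genes 6 rose (median 0.98), 3 were still higher at day 21 and 5 were lower at day 21 than at day 3. Cryab, which encodes alphaB-crystallin, a component of the GFAP aggregates of Alexander disease, rose by 0.88 ± 0.21 on the log2 scale (edgeR adjusted p 0.0076), with 263 ± 9.4 FPKM at day 0 and 503 ± 8.7 at day 3. Hspb1 rose from 16.3 ± 1.8 to 258 ± 6.5 FPKM, by 3.94 ± 0.27 on the log2 scale (edgeR adjusted p 4.6e-06), and was at 72.7 ± 32 FPKM at day 21. Hspb6, Hspb8 and Bag3 rose at day 3 by 2.11, 1.17 and 0.79 (edgeR adjusted p 6.4e-06, 9.1e-05 and 0.0019). At day 21 the summed FPKM of the list was 531 and 545 in replicates 3 and 1 and 886 in replicate 2.

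Among 9 genes of the adhesion and dystrophin complexes that synemin binds, 5 rose at day 3 (median 0.67) and 4 were lower at day 21 than at day 3. These included vinculin (Vcl), zyxin (Zyx), talin (Tln1) and dystroglycan (Dag1), which rose by 1.38, 0.69, 1.36 and 1.58 on the log2 scale (edgeR adjusted p 0.00018, 0.00034, 2.4e-05 and 0.0023). Without day 21 replicate 2, 5 of the 9 were called higher at day 21 than at day 0, against 0 in the fit of all 9 libraries. Some alternative fits that kept that library also made such calls, as for Tln1 with upper-quartile scaling (0.398, edgeR adjusted p 0.0181). Of 7 matched genes of other plakins and of the integrin alpha6beta4 that plectin binds, 3 rose at day 3 (median 0.12): the plakin genes Ppl and Dsp, the latter named after its values were seen, and the integrin gene Itga6. Dsp was low, at 0.0207 FPKM at day 0 and 0.145 at day 3. The other integrin gene, Itgb4, and the more abundant plakin genes Dst and Macf1 were not called at day 3 (0.12, -0.41 and -0.28). The plakin gene Evpl, envoplakin, fell by 1.18 (edgeR adjusted p 8.7e-05), and 3 genes of the list were lower without day 21 replicate 2. The periplakin gene Ppl was the furthest changed, by 3.61 ± 0.25 on the log2 scale (edgeR adjusted p 3.9e-06), with 0.0671 ± 0.023 FPKM at day 0, 0.878 ± 0.13 at day 3 and 1.07 ± 0.049 at day 21.

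Enzymes that modify filament proteins were mixed. Of 16 kinases, proteases and deiminases, 9 rose and 4 fell at day 3 (median 0.60), and 8 were lower at day 21 than at day 3. The mitotic kinases Aurkb, Plk1 and Cdk1, which phosphorylate vimentin or other filament proteins during division, rose at day 3 by 5.09, 4.70 and 3.92 on the log2 scale (edgeR adjusted p 2e-06, 1.4e-06 and 1.4e-06). The 10 proliferation genes listed beside them all rose at day 3 (median 4.52). Casp6, a protease that cuts lamins and other filament proteins, rose by 1.88 (edgeR adjusted p 7.3e-06), and Prkaca, the catalytic subunit of protein kinase A, fell by 0.73 (edgeR adjusted p 0.00025). The 8 genes lower at day 21 than at day 3 were 5 without day 3 replicate 1.

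Around Cd44, 10 of 13 partner, ligand and sheddase genes rose and 1 fell at day 3 (median 2.21), 7 were higher at day 21 than at day 0, and 9 were lower at day 21 than at day 3. Spp1, which encodes the ligand osteopontin, rose by 3.73 ± 0.11 on the log2 scale at day 3 (edgeR adjusted p 6.2e-08), with 27.4 ± 1.9 FPKM at day 0 and 377 ± 2.5 at day 3, and was at 92.8 ± 11 FPKM at day 21. Slc7a11, the cystine transporter subunit that CD44 stabilises, rose by 2.83 and Msn, the moesin that links CD44 to actin, by 2.49 (edgeR adjusted p 1.2e-06 and 2.1e-05). Cd74, the invariant chain that pairs with CD44 as a receptor, rose by 2.21 at day 3 and stood 2.79 above day 0 at day 21 (edgeR adjusted p 5.4e-05 and 3.9e-05). Of 21 tested genes of hyaluronan synthesis, breakdown and binding, 11 rose and 6 fell at day 3 (median 0.65), and 12 were lower at day 21 than at day 3. Hmmr, Stab1, the hyaluronan receptor gene Lyve1 and the hyaluronan-cleaving Cemip rose at day 3 by 4.83, 3.88, 2.83 and 3.19 on the log2 scale (edgeR adjusted p 9.8e-06, 7e-08, 6.2e-06 and 1.9e-05). Hapln4, a link protein of perineuronal nets, fell from 99.3 ± 8.1 to 35.0 ± 0.69 FPKM (-1.56 ± 0.13, edgeR adjusted p 1.4e-05). At day 21, 4 hyaluronan genes were higher than at day 0, and 10 were without day 21 replicate 2.

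The gp130 cytokines signal through STAT3, which is known to drive Gfap. Of 23 tested genes of this pathway and of astroglial transcription factors, 18 rose and 2 fell at day 3 (median 1.45), 14 were higher at day 21 than at day 0 (median 0.80) and 13 were lower at day 21 than at day 3. The 2 that fell at day 3 were 4 without day 21 replicate 2, and 1 without day 0 replicate 2 or 3 or day 3 replicate 1 or 3. Socs3, the feedback inhibitor, rose from 0.667 ± 0.19 to 33.5 ± 2.1 FPKM and was at 5.51 ± 0.62 at day 21 (log2 differences from day 0 of 5.59 and 2.91, edgeR adjusted p 1.7e-07 and 1.1e-05). The cytokine genes Clcf1 and Lif rose at day 3 by 4.80 and 3.33 on the log2 scale (edgeR adjusted p 2e-06 and 2.7e-05). The oncostatin M receptor gene Osmr rose by 3.32 (edgeR adjusted p 0.00032). Stat3 itself, named after its values were seen, rose by 1.23 at day 3 (edgeR adjusted p 0.00049) and was at 7.96 ± 1.9 FPKM at day 21, against 6.84 ± 0.32 at day 0.

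**Figure D4:**
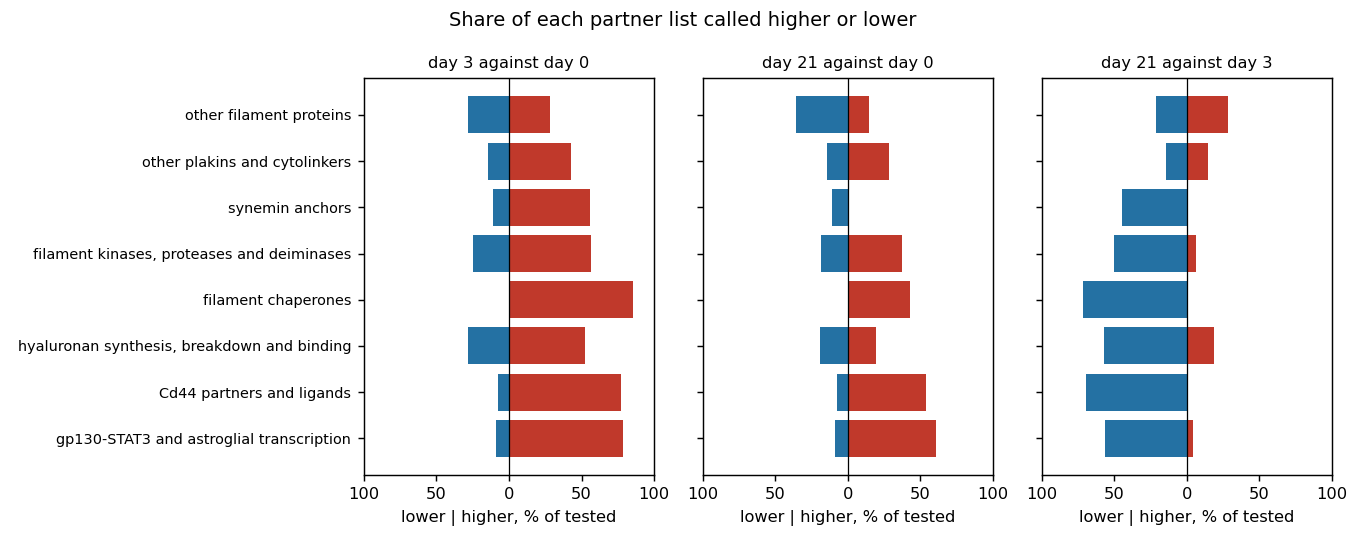
Share of the tested genes in each of 8 partner lists (horizontal axis, percent) called higher (red, to the right) or lower (blue, to the left) in the 3 comparisons, from edgeR with an adjusted p under 0.05. Chaperones, Cd44 partners and gp130-STAT3 genes reach furthest to the right at day 3, with 6 of 7, 10 of 13 and 18 of 23.

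Markers of astrocytes and of other cells that make these proteins moved at the same time. Of 24 genes often used as markers of reactive astrocytes, 23 rose at day 3 (median 2.82) and 20 were higher at day 21 (median 2.22), and their summed level went from 104 to 106 FPKM at day 0 to 1532 to 1587 at day 3 and 571 to 689 at day 21. Serpina3n, an acute phase protease inhibitor, led them at 43.0 ± 3.0, 1140 ± 27 and 338 ± 23 FPKM (log2 differences from day 0 of 4.67 and 2.85, edgeR adjusted p 3.3e-08 and 7.4e-07). Timp1, an inhibitor of matrix proteases, rose by 7.85 and Lcn2, an iron-binding secreted protein, by 6.16 at day 3 (edgeR adjusted p 1.6e-06 and 8.7e-07). The 3 genes of this list that were higher at day 21 than at day 3, C3, Cxcl10 and Iigp1, were named after their values were seen, and complement C3 went from 17.1 ± 0.46 to 39.2 ± 0.62 and 97.4 ± 4.8 FPKM.

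Markers of resting astrocytes were mixed. Of 15, 3 rose and 5 fell at day 3 (median -0.40), and their summed level was 2529 to 2696 FPKM at day 0, 2339 to 2354 at day 3 and 2398 to 3112 at day 21. The 5 that fell were 8 without day 21 replicate 2, and 3 without day 0 replicate 2, day 0 replicate 3 or day 3 replicate 1. The water channel gene Aqp4 rose by 0.97 ± 0.21 on the log2 scale (edgeR adjusted p 0.0051), with 87.8 ± 3.7 FPKM at day 0 and 179 ± 1.7 at day 3. Glul, the glutamine synthetase gene, fell from 629 ± 32 to 493 ± 8.7 FPKM (-0.40 ± 0.08, edgeR adjusted p 0.0037). In bulk tissue, more cells of a type and more RNA per cell cannot be told apart, so none of these levels gives a number of astrocytes.

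Vim, Cd44 and to a lesser degree Nes are also made by cells that enter or grow in a lesion. The 13 macrophage and microglia markers all rose at both days (medians 3.21 and 2.70), with summed levels of 53.9 to 58.7 FPKM at day 0, 737 to 748 at day 3 and 543 to 763 at day 21. The highest day 21 value was that of replicate 2, as it was for the resting astrocyte, neuron and oligodendrocyte lists. Vim was also highest in that library. Its FPKM summed over all genes was 364568, against 329915 and 324383 in replicates 1 and 3. All 10 fibroblast and meningeal markers rose at day 3 (median 3.85), from 48.7 to 51.0 FPKM summed to 640 to 644, and were at 316 to 381 at day 21. Endothelial markers were at 61.9 to 74.4, 198 to 207 and 64.7 to 83.2 FPKM, with 8 of 10 higher at day 3. Pericyte and smooth muscle markers were at 57.4 to 58.3, 297 to 306 and 99.8 to 118 FPKM, with 6 of 9 higher at day 3. Schwann cell markers were at 221 to 269, 726 to 744 and 355 to 424 FPKM, with 9 of 10 higher at day 3. The part of these cells in the levels of Vim, Cd44, Nes, Plec, Gfap and Synm was not tested.

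Other markers moved apart from the filament genes. Of 12 skeletal muscle markers, of interest because muscle makes desmin and plectin, 11 were higher at day 21 than at day 0. The other one, Pvalb, is also made by spinal interneurons, and it held most of the summed level of the list at day 0 and day 3, at 48.5 to 62.0 and 25.4 to 29.6 FPKM. The other 11 summed to 15.4 to 19.5 FPKM at day 0, 8.46 to 8.72 at day 3 and 122 to 211 at day 21, the highest again in replicate 2. The 10 neuron markers all fell at day 3 (median -1.17), and 8 were lower at day 21 than at day 0, or 5 with limma on FPKM, with a filter of 5 FPKM or with only the 2 groups compared. Ependymal and progenitor markers, of which Nes is a classical companion, had 2 of 12 genes higher and 1 lower at day 3 (median -0.12). Among all tested genes 24.8% were higher at that day. The markers summed to 68.4 to 70.6, 81.2 to 86.2 and 95.0 to 154 FPKM at day 0, day 3 and day 21. Of the 2 higher genes, 1 was left without day 0 replicate 2, day 0 replicate 3 or any one day 3 library.

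**Figure D5:**
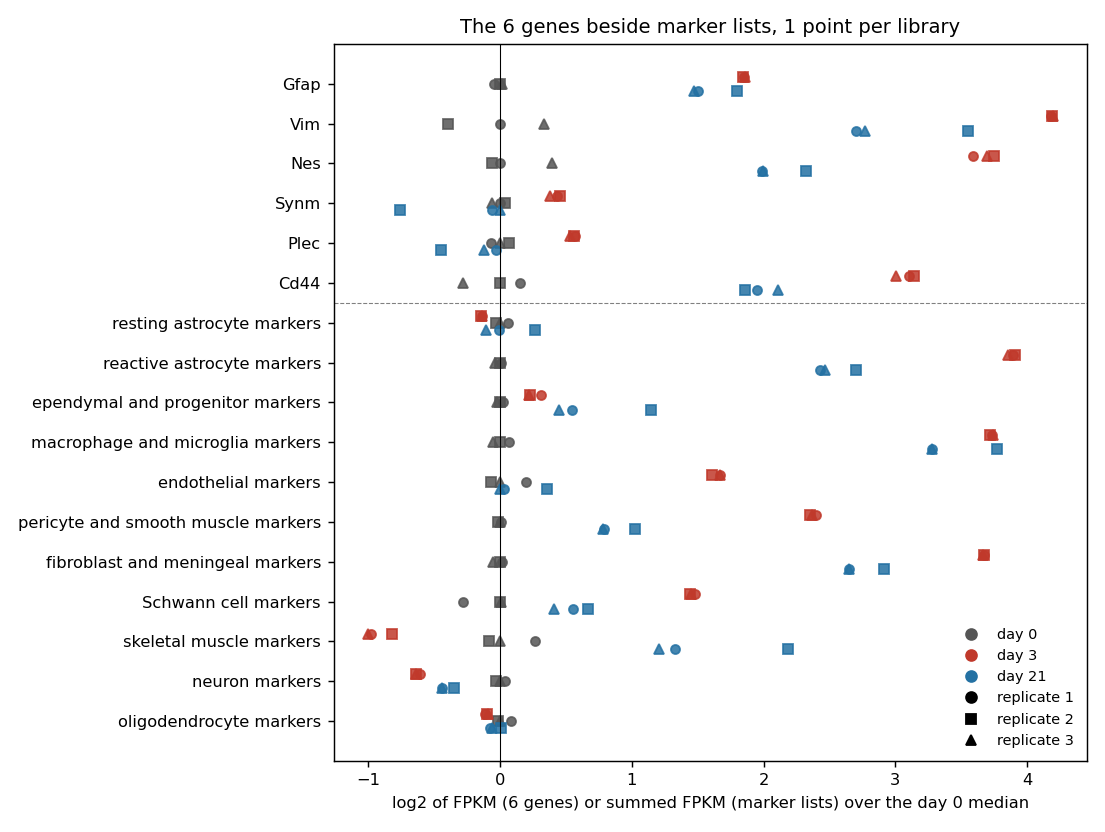
log2 of the FPKM of each of the 6 genes (above the dashed line) and of the summed FPKM of each marker list (below it) over the median of the day 0 libraries (horizontal axis), with 1 point per library; the skeletal muscle list includes Pvalb. Gfap, Vim, Nes and Cd44 have the order day 3, day 21, day 0 from high to low without overlap. The reactive astrocyte, fibroblast, pericyte and smooth muscle, and Schwann cell lists have the same order. In each of the 11 lists day 21 replicate 2 lies to the right of the other day 21 libraries.

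Across the 9 libraries the 6 genes formed 2 loose sets by the correlation of log2(FPKM + 1), which is a description of points that share a day. Gfap, Vim, Nes and Cd44 correlated with each other at 0.927 to 0.984, and Synm with Plec at 0.941. Between the sets r was 0.17 to 0.647, lowest for Gfap with Synm. Over 6884 tested genes averaging 5 FPKM or more, the genes most like Gfap over the 9 libraries were Aebp1, Unc93b1 and Ptpn6 (r = 0.9994, 0.999 and 0.9987). Those most like Vim were Fermt3, P2ry6 and Lgals3 (r = 0.9995, 0.9968 and 0.996), and those most like Nes were Ms4a6d, Cldn19 and Avil (r = 0.9972, 0.9966 and 0.9965). Cd44 was most like Pros1, Stom and Kank2 (r = 0.9968, 0.9963 and 0.9959). Synm was most like Nrcam, Clic4 and Epas1 (r = 0.9931, 0.9913 and 0.9903), and Plec most like Akap12, Smurf1 and Tob2 (r = 0.9923, 0.9919 and 0.9918).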

How the data were processed

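RNA of 9 mouse spinal cord libraries, 3 per day, was measured by poly-A selected, paired-end RNA sequencing, per the labels' protocols. The submitters' processing notes name HISAT2, StringTie and the human build GRCh38, whereas the table's loci match mouse GRCm38. No source used here gives the aligner settings, the annotation or whether strand was used in counting. The deposited table holds whole-number read counts per gene, not normalized, and FPKM made by the authors, both per the file headers. The FPKM equal count over gene length and over the library's total, within 0.0014% over 12001 genes with at least 50 counts.

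Counts were fitted with edgeR 4.0.16 (R 4.3.3, TMM scaling, default filter, robust quasi-likelihood) on all 9 libraries in 1 fit with 6 residual degrees of freedom. A two-sided Benjamini-Hochberg adjusted p under 0.05 over 16494 genes was a call. The SE is the log2 fold change over the square root of F. Ratios within libraries were compared by exact permutation in SciPy 1.17.1. The fit was also run on simulated counts with 200 genes changed at day 3. Those counts held no gene length trend and no outlying library, so the run does not measure error rates in these data.

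The 6 genes and the gene lists were chosen with earlier results of these data known. The genes named from a list were drawn from up to 4, taken by size of change among called genes at 1 FPKM or above, plus the most abundant one. Not every gene that met this rule was named. Of 277 list entries 1 had no match. Likeness was the Pearson correlation of log2(FPKM + 1) over 9 libraries, with the 3 highest genes named. The 22 alternatives were other scalings, DESeq2 1.42.0, limma 3.58.1 (voom with sample weights, log2(FPKM + 1), log2(FPKM + 0.1) and log2(TPM + 1)), no filter, at least 5 FPKM in 3 libraries, a non-robust fit, only the 2 groups compared, a replicate block, each library left out, and removal of the gene length trend, the last chosen after seeing the data. Sequences are from RefSeq.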

Additional observations from a re-analysis of the deposited data

How the results depend on the processing

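The calls of Gfap, Vim, Nes and Cd44 against day 0, of Plec at day 3 and of the falls of Vim, Nes, Plec and Cd44 from day 3 to day 21 held in all 22 alternatives, and the counts of called genes among the 6 stayed within 1.5 times. For Gfap, day 21 against day 3, the log2 fold change was -0.223 with upper-quartile scaling (adjusted p 0.182), -0.262, -0.263 and -0.273 with limma on log2(FPKM + 1), log2(FPKM + 0.1) and log2(TPM + 1), -0.3 without a count filter and -0.295 with only the 2 groups compared, none of them called. Leaving out each library gave -0.42 to -0.278. For Synm, day 3 against day 0, 0.369 with voom, 0.379 with only the 2 groups compared and 0.467 with the length trend removed were called, and leaving out each library gave 0.35 to 0.413. For Synm, day 21 against day 0, -0.315 with the length trend removed was called. For Synm, day 21 against day 3, -0.697 with only the 2 groups compared was not called, and leaving out each library gave -0.861 to -0.508. For Plec, day 21 against day 0, -0.213 with voom was called. Dst, a plakin, was at 0.124 and not called for day 21 against day 3 (adjusted p 0.828), and was called at -0.279 with the length trend removed, at 0.433 with voom and at 0.487 without day 21 replicate 2. The cause of these changes was not tested.

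The replicate numbers do not pair the libraries, since same-numbered libraries deviated from their groups with correlations of -0.146 to 0.107, and not every library correlated best with its own number. With the replicate block, Gfap, day 21 against day 3, was -0.334 (adjusted p 0.0586) and no other call of the 6 genes changed. Over all genes the block gave 3775 higher and 2814 lower at day 3, 2516 and 1318 at day 21, and 1388 and 2252 for day 21 against day 3, each within 1.5 times of the counts without it.

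Over all genes, 4090 were higher and 3217 lower at day 3, against 1983 and 1775 with at least 5 FPKM in 3 libraries, a filter that tests fewer genes, and 5215 lower with voom. At day 21 against day 0, 2949 were higher and 1864 lower, against 1395 and 691 with that filter, 3946 lower with voom, and 1172, 1107 and 829 lower with limma at both pseudocounts and with only the 2 groups compared. The share of calls that were higher was 61.3% there, and 73.7 and 75.5% with limma on FPKM. At day 21 against day 3, 1928 were higher and 2657 lower, against 4419 and 4832 with voom and 1243 and 1262 with the filter, and the share higher was 42.1%, or 54.3% with upper-quartile scaling. Leaving out day 21 replicate 2 gave 4870 lower, 3710 lower, and 3924 higher and 4277 lower in the 3 comparisons. Leaving out a day 3 library gave 1007 to 1074 higher in the last, and leaving out day 0 replicate 2 or 3 gave 1062 or 1004 lower in the second. The filter of 5 FPKM moved the median of all genes by 0.147 at day 21 against day 0, and it lowered the counts of the hyaluronan, gp130-STAT3, kinase and macrophage lists. Cd44 at day 0, the lowest level of the 6 genes, had a coefficient of variation of 15.1%, where counting error alone gives 6.27%.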
